A study of Rattus norvegicus with 8 samples.

Results

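The genes described here encode the proteins of the mitochondrial ribosome, and were taken by name: every gene whose symbol begins with Mrpl or Mrps followed by a digit, with a mean expected count of at least 10 per library. An expected count is the authors' estimate of the reads that belong to a gene. The name pattern found 69 of the 17168 genes listed, and all 69 reached that minimum, with means from 22.8 counts (Mrps28) to 705 counts. They comprise 41 genes named for the large subunit (Mrpl) and 28 named for the small subunit (Mrps). The RNA came from homogenised medial prefrontal cortex of male Sprague-Dawley rats, a common outbred laboratory strain, grouped by motor impulsivity. HI rats were in the upper quartile of premature responses in a serial reaction time task with a single choice, LI rats were in the lower quartile, and 4 libraries of each were compared. The labels name no drug treatment, genotype or age, and whether each library is a separate rat is left unsaid, so p-values measure the spread between these libraries.

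Mitochondria keep their own ribosome, which makes the few respiratory chain subunits encoded in mitochondrial DNA. Its RNAs come from that DNA, whereas all its proteins are made in the cytosol from nuclear genes and imported, so the ribosome draws on both genomes. The small subunit decodes the message and the large subunit joins the amino acids and passes the new chain to the inner membrane, and neurons rely on this system for the ATP spent on ion pumping and transmitter release. Of the 69 genes, 41 encode proteins with a bacterial ribosomal counterpart and 27 encode proteins added in mitochondria. The remaining gene, Mrps36, carries a ribosomal name although its protein is known as a subunit of the oxoglutarate dehydrogenase complex, and current RefSeq calls it Kgd4.

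The libraries held from 7354416 (HI2) to 9476656 counts, ribosomal RNA included, and were not alike. Ribosomal RNA took 0.406% of the counts in HI4 and 0.418% in LI3, but 25.5% in HI2, and 1.37% to 6.42% in the rest. HI2, already the library with the fewest counts, thus had the largest part of them in ribosomal RNA. Long transcripts were over-represented in HI4, with a slope of 0.13 (log2 CPM for each doubling of length), and under-represented in LI1, with a slope of -0.08, while the other 6 libraries lay between -0.03 and 0.01. Markers of the labelled tissue were present: all 6 neuronal and all 3 cortical markers passed the low-count filter, with summed library-scaled counts (CPM) of 4623 to 10190 in HI and 4706 to 8559 in LI for the neuronal list. All 5 astrocyte markers (1654 to 2176 CPM in HI, 1677 to 2040 in LI), all 5 oligodendrocyte markers (1765 to 1937 and 1503 to 5902), all 4 endothelial markers (68.3 to 118 and 69.3 to 97.5), 2 of 3 meningeal markers (16.1 to 184 and 7.18 to 32.5) and all 4 striatal markers (240 to 293 and 243 to 617) were also detected. LI2 was the highest library for the oligodendrocyte and striatal lists, and HI1 for the meningeal list. The 5 microglial markers summed to 190 to 224 CPM in HI and 236 to 246 in LI, without overlap. Fewer cells of a type and less RNA per cell cannot be told apart in such homogenates.

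The start regions of some of these genes hold letters that the name rule did not use. RefSeq (GRCr8) gave a window of 250 bases before and 50 after the start for 55 of the 69 genes, spread over 17 chromosomes. These windows were searched on both strands for the letters of 3 factors known to act on nuclear genes for mitochondrial proteins: YY1 (AAGATGGC), the ETS family factor GABP (CCGGAAGT) and NRF1 (GCATGCGC). The YY1 letters stood in 14 of 55 member windows (25.5%), against 5.36% of the windows of 9470 tested genes and 3.44% of all 27457 windows. The GABP letters stood in 14.5%, 8.05% and 4.01%, and the NRF1 letters in 9.09%, 4.96% and 2.66%. Among other motifs, the SP1 letters GGGCGG stood in 52.7% of member windows and 62.3% of those of tested genes, and CCAAT in 43.6% and 37.3%. TATAAA stood in 12.7% of member windows, 6.78% of those of tested genes and 14.3% of all windows, and TGACGTCA in 1.82%, 3.25% and 1.91%. No member window held both the GABP and the NRF1 letters. A match is a description of the letters, and no binding was measured.

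The YY1 letters were printed because their place was so regular, for those of the 25 named members (see the processing notes) that hold them. Of the 14 matches in members, 11 lay on the gene's own strand, at or after the start and no further than base 30 after it. In tested genes 46.9% of 518 matches lay on the gene's own strand at or after the start. Member matches outside that place, as far as base -220, are not among those printed. The letters hold an ATG. Each line gives 30 bases of the gene's strand, 5′ to 3′, with the matched letters in capitals.
Mrpl50, chr5:68668043-68668072, minus strand: ggagcttgtcgAAGATGGCggcgctgtgtg
Mrps10, chr9:21122405-21122434, minus strand: gtcagggcaccAAGATGGCggcgcgcgcag
Mrpl42, chr7:32028485-32028514, minus strand: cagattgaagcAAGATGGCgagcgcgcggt
Mrpl49, chr1:212779293-212779322, minus strand: ttggaggagcaAAGATGGCagcaaatgtat
Mrps30, chr2:52195868-52195897, minus strand: cgcggaggacaAAGATGGCggctgccaggt
Mrps18a, chr9:22367362-22367391, minus strand: ggtgtgttcccAAGATGGCggccctcaggg

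The GABP letters are shown for 3 of the members with the smallest p in the comparison of HI with LI, and the NRF1 letters for Mrpl44, in the same way. Mrpl3, with a log2 HI minus LI of -0.07, also held the GABP letters and is not printed. The 8 members with these letters had a median log2 HI minus LI of -0.11, and all 69 members had one of -0.11. A link between the letters and the difference was not tested. In Mrps26 and Mrps18c the match is on the opposite strand and reads ACTTCCGG.
Mrps26, chr3:138222329-138222358, plus strand: gctcctcgaccACTTCCGGacagggcgcag
Mrpl27, chr10:80092273-80092302, plus strand: gtacgcaagacCCGGAAGTagatctatccc
Mrps18c, chr14:9123028-9123057, minus strand: tgtgtcacgtgACTTCCGGcccggggagcg
Mrpl44, chr9:88554909-88554938, plus strand: gaagcacttgcGCATGCGCactatgctagt

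A start region shared with a gene read in the opposite direction was common. Of the 55 members, 18 (32.7%) had such a neighbour whose start lay within 1000 bases upstream, against 15.8% of tested genes and 10.3% of all windows. In 1 case both genes are members: Mrpl46, of the large subunit, and Mrps11, of the small subunit, start 234 bases apart. The 233 bases between both starts are printed on the plus strand, with the only motif found in them, TATAAA, in capitals.
chr1:142117031-142117263: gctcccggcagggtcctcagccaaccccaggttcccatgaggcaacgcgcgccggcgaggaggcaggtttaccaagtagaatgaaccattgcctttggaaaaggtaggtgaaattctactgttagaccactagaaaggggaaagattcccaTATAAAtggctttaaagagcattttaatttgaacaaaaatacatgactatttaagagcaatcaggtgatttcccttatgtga
Mrps11 differed between HI and LI by -0.20 ± 0.20 and Mrpl46 by -0.14 ± 0.15 (log2 HI minus LI ± SE), and neither passed the test of HI against LI.

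Levels were compared between genes as CPM per kilobase of transcript, which removes the effect of length on read number. The 69 genes had a median of 22.6 CPM per kb, against 12.9 for all 11631 genes tested, 124 for 76 nuclear respiratory chain genes and 258 for 79 cytosolic ribosomal protein genes. The genes with Mrpl names had a median of 22.6 CPM per kb and those with Mrps names one of 22.4. Members with a bacterial counterpart had a median of 21.8 CPM per kb and mitochondria-specific members one of 25.5.

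Although their products are assembled into 1 particle, the messages spanned a 19-fold range of means. Mrps21, counterpart of a small bacterial small-subunit protein, was highest at 73.2 CPM per kb, followed by Mrpl42 at 63.5 and Mrpl54 at 61.5, both mitochondria-specific large-subunit proteins. These 3 overlapped one another in their libraries. Mrps28, a small-subunit protein, was lowest at 3.86 CPM per kb, below Mrpl50 (7.11) and Mrpl40 (8.49), both mitochondria-specific large-subunit proteins. Mrps28 rests on a mean of only 22.8 counts per library. Between these ends, 61 of the 69 means lay between 10 and 50 CPM per kb. Of the 68 pairs of neighbours in the order, only Mrps28 and Mrpl50 had libraries that did not overlap, as the plot of levels per transcript length shows. Neighbours in an order of means are close by construction, so their overlap says nothing of genes further apart.

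**Figure D1:**
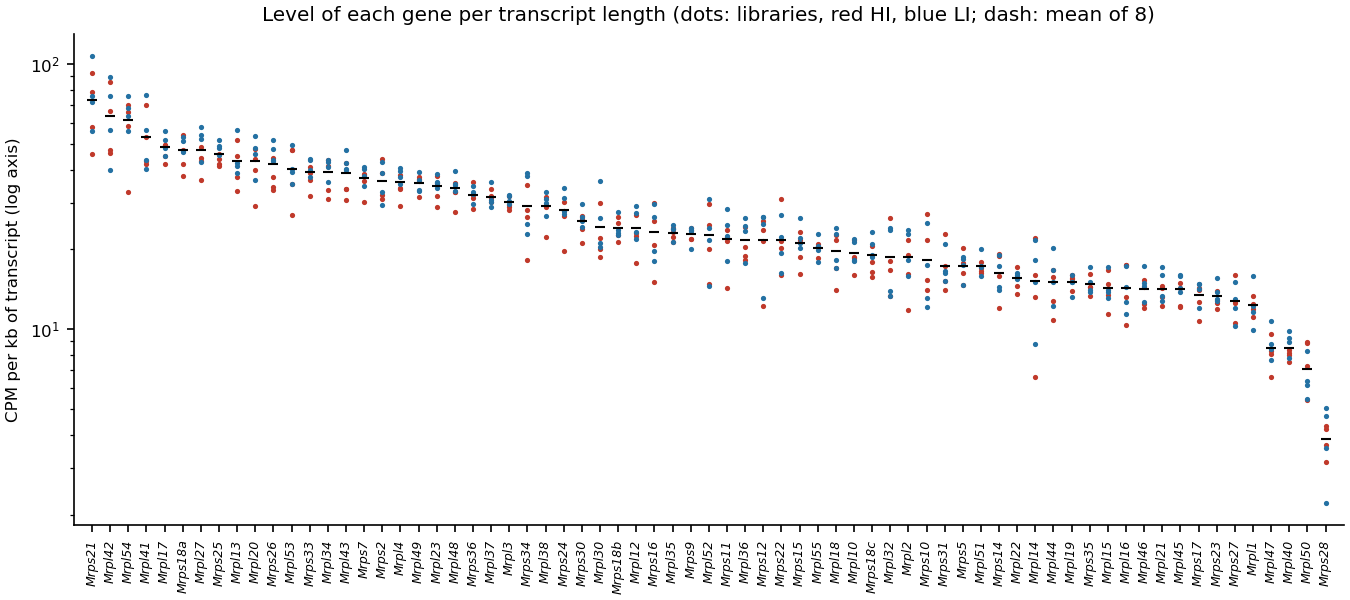
Level of each of the 69 genes as CPM per kb of transcript (log axis), ordered by the mean of 8 libraries (dash), with each library as a dot (HI red, LI blue). Means of 61 genes lie between 10 and 50 CPM per kb, and Mrps28 stands lowest with a mean of 3.86.

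In the comparison of HI with LI, no mitochondrial ribosomal protein gene passed the test. Of the 69 genes, 59 had a lower fitted value in HI and 10 a higher one, with a median log2 fold change of -0.11, in a background where 51.5% of all tested genes were lower and the median was -0.0069. With transcript length accounted for, as described further on, 43 of the 69 were lower with a median of -0.04, in a background of 52.7%. By edgeR's quasi-likelihood test with an adjusted p threshold of 0.1 (the alpha in the series' design text), 0 members were called, where 0.0% of all genes were. The smallest adjusted p over all genes was 1.00. At an unadjusted p under 0.05 there was 1 member, against 4.16% of tested genes. With the log2 share of ribosomal RNA as a covariate, a fit added after seeing the data, edgeR called 0 members and 3.78% of all genes. DESeq2 also called 0 members, while it called 0.488% of the genes to which it gave an adjusted p. Fisher's exact test on counts summed within groups, which the design text names, called 48 of the 69 (69.6%), against 56.7% of tested genes. All 48 were lower in HI, a direction in which it called 44.0% of tested genes. Its median log2 ratio was -0.20 over the members and -0.11 over all tested genes. That test takes no account of the spread between libraries. It used count totals that were not TMM-scaled and that include ribosomal RNA.

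Genes named for either subunit were more often lower than higher. Of the 41 genes with Mrpl names 37 had lower fitted values in HI (median -0.11), and of the 28 with Mrps names 22 had (median -0.11). The Mrps names include Mrps30, Mrps18a and Mrps36, whose proteins are not small-subunit proteins. Of the genes with a bacterial counterpart 36 of 41 were lower, and of the mitochondria-specific genes 22 of 27, with medians of -0.11 in both. The differences were small beside their errors: the fitted values ran from -0.32 to 0.21, and in 50 of the 69 genes the SE exceeded the difference. HI and LI libraries overlapped in all 69 genes, where 1.14% of tested genes had all HI libraries below all LI libraries and 2.31% had them above. The plot of fitted differences shows all members with their errors.

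**Figure D2:**
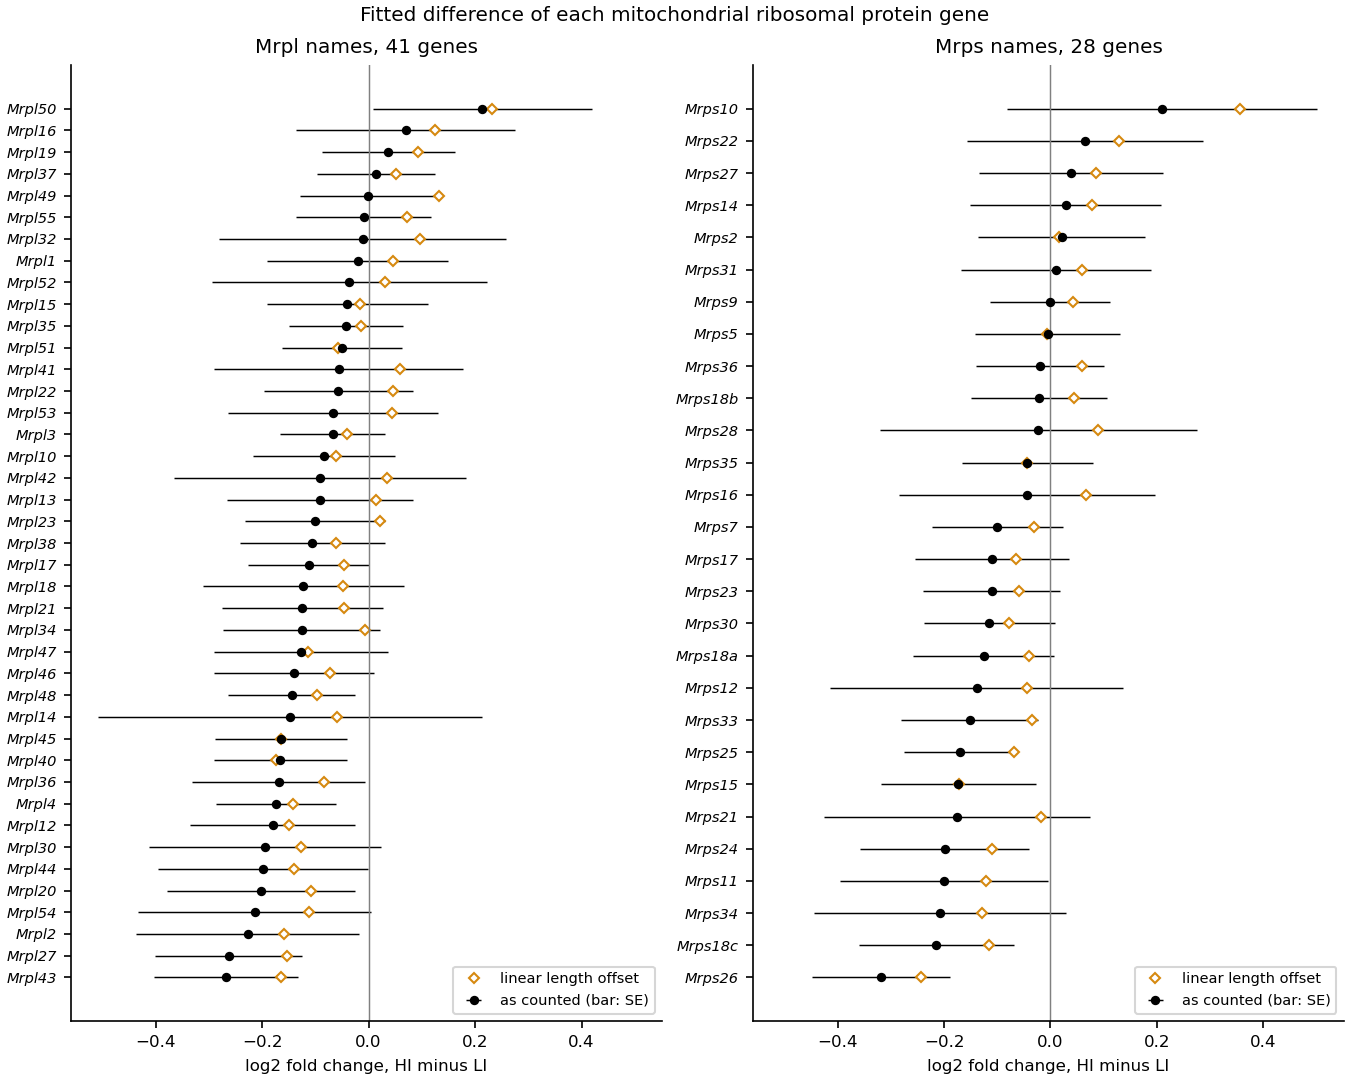
Log2 fold change (HI minus LI) of each gene with an Mrpl name (left, 41) and an Mrps name (right, 28). Black points with bars are the fit on counts with its SE and open diamonds are the fit with a linear length offset. Most black points lie left of 0, and most diamonds lie closer to 0 or to its right.

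The gene with the smallest p was Mrps26, a mitochondria-specific small-subunit protein. Libraries HI1 to HI4 gave 33.2, 36.2, 42.8 and 32.5 CPM, and LI1 to LI4 gave 50.2, 42.2, 41.6 and 46.5. HI3 thus lay above LI2 and LI3, and the other HI libraries lay below all LI libraries. The HI mean was 36.2 ± 4.71 and the LI mean 45.1 ± 4.03 CPM (SD, n = 4), and the log2 fold change was -0.32 ± 0.13 (SE; edgeR adjusted p = 1.00). Mrpl43, a mitochondria-specific large-subunit protein, stood at 24.1, 24.1, 30.1 and 21.8 CPM in HI and at 33.7, 28.3, 30.1 and 28.5 in LI. Again HI3 alone reached into the LI range, and the log2 fold change was -0.27 ± 0.14.

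Mrpl27, whose bacterial counterpart reaches the site where peptide bonds form, stood at 30.7, 25.3, 33.7 and 29.9 CPM in HI and at 40.1, 29.6, 36.4 and 37.6 in LI. LI2 fell among the HI libraries, and the log2 fold change was -0.26 ± 0.14. Mrpl4, a large-subunit protein with a bacterial counterpart, stood at 53.2, 46.0, 59.9 and 53.6 CPM in HI and at 62.2, 55.6, 63.5 and 58.8 in LI, a log2 fold change of -0.17 ± 0.11. HI3 lay above LI2 and LI4. Mrps25, a mitochondria-specific small-subunit protein, stood at 31.0, 33.7, 32.3 and 30.5 CPM in HI and at 35.5, 33.6, 36.2 and 38.0 in LI. Only HI2 and LI2 crossed, narrowly, and the log2 fold change was -0.17 ± 0.11.

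Of the other members with a small p, Mrps18c, related to the same bacterial protein as Mrps18a, differed by -0.21 ± 0.15. Mrpl45, known for holding the ribosome at the inner membrane, differed by -0.16 ± 0.12. Its deposited counts were not whole numbers in any library. That held in all 8 libraries for 7 members, Mrpl45 included, and in at least 1 library for 13. Mrpl40 differed by -0.17 ± 0.12.

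**Figure D3:**
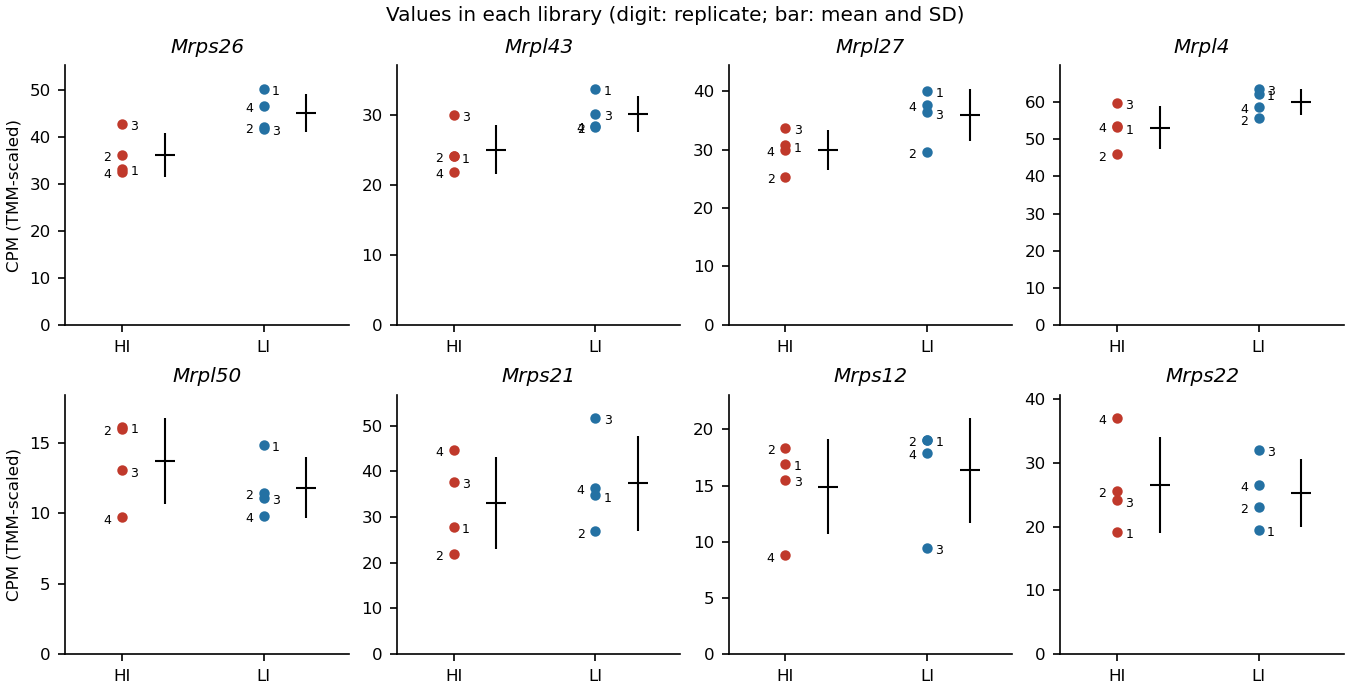
CPM (TMM-scaled) of 8 members in each HI (red) and LI (blue) library, with replicate digits, and the mean and SD beside them. HI and LI overlap in all 8 genes, and in Mrps21, Mrps12 and Mrps22 HI4 and LI3 stand on the same side of the other libraries.

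The members with the highest fitted values in HI were few and variable. Mrpl50 stood at 16.1, 16, 13.1 and 9.72 CPM in HI and at 14.9, 11.5, 11.1 and 9.85 in LI, a log2 fold change of 0.21 ± 0.21. HI1 and HI2 were above all LI libraries and HI4 below all of them. Mrps10, counterpart of a bacterial small-subunit protein, stood at 7.13, 7.77, 11.1 and 13.8 CPM in HI and at 6.14, 6.69, 12.8 and 8.90 in LI, a log2 fold change of 0.21 ± 0.29, which was 0.01 without HI4. Mrpl16, of the large subunit, differed by 0.07 ± 0.21, and by -0.03, -0.02 and -0.01 without HI1, HI2 and LI3.

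Members known for a particular role or for inherited disease were not called either. Mrpl12, known to bind the mitochondrial RNA polymerase as well as the ribosome, stood at 36.1, 42.0, 35.0 and 27.7 CPM in HI and at 45.6, 43.0, 36.4 and 34.4 in LI, a log2 fold change of -0.18 ± 0.16. HI and LI interleaved, with HI4 lowest. Mrpl3, of the large subunit, was among the steadiest members, with a mean of 48.8 ± 2.68 CPM (HI) and 51.1 ± 1.74 CPM (LI; SD, n = 4), and differed by -0.07 ± 0.10. Mrpl44, which resembles the RNase III family, differed by -0.20 ± 0.20.

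Among the small-subunit disease genes, Mrps34 differed by -0.21 ± 0.24. With the share of ribosomal RNA as a covariate, on which HI2 stands far above the other libraries, Mrps34 differed by -0.40 ± 0.20. Mrps12 and the large-subunit genes Mrpl54, Mrpl12 and Mrpl44 also became more negative in that fit, at -0.32, -0.38, -0.30 and -0.33. These are picked for that change, and Mrps21 and Mrpl42 turned positive instead, with values given further on. None of them was called. Mrps22 differed by 0.07 ± 0.22, and by -0.14 without HI4 and -0.05 without LI1. Mrps30 and Mrps18a, which carry small-subunit names but sit in the large subunit, differed by -0.11 ± 0.12 and by -0.13 ± 0.13, the latter -0.05 without HI4. Mrps36, the gene that belongs to oxoglutarate dehydrogenase, had means of 29.3 ± 2.86 CPM (HI) and 29.7 ± 1.97 CPM (LI; SD, n = 4), a difference of -0.02 ± 0.12, and of 0.03 without HI4 and 0.01 without LI1.

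Transcript length moved with this pattern. The members are short, with a median length of 998 bases against 2198 for all tested genes, and 51 of the 69 fall in the shortest of 5 length bins of tested genes (128 to 1366 bases). In that bin 69% of all tested genes were lower in HI (median -0.09), and 44 of the 51 members were (median -0.11). In the longest bin, from 3650 bases, where no member falls, 28.9% of genes were lower and the median was 0.09. Within the members, 34 of the 35 genes shorter than 1000 bases were lower in HI (median -0.13), against 25 of the 34 longer ones (median -0.06).

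With each library's linear trend on transcript length taken out of the fit, 43 of the 69 members were lower in HI with a median of -0.04, in a background of 52.7% lower and a median of -0.01. Of the 59 members lower in the fit on counts, 16 turned, and none turned the other way. In the shortest bin 29 of 51 members and 54.0% of all genes were then lower, and of the members under 1000 bases 21 of 35. In the bin from 1367 to 1894 bases, 8 of 10 members were lower without the offset (median -0.06) and 7 with it (-0.03). Of all genes there, 59.3% and 52.8% were lower. In the bin from 1895 to 2571 bases, 7 of 8 members were lower in either fit, against 54.3% and 54.7% of all genes there. The median of these members was -0.09 in either fit, against -0.02 for all genes of that bin. That bin holds the median length of tested genes, where the offset changes little. Without LI3, 37 of 69 were lower with the length offset and the median was -0.02. A lowess trend in place of the line gave 41 of 69 and a median of -0.04, in a background of 52.8% lower and a median of -0.01. No member was called with either length offset by edgeR. With the linear offset Mrps26 differed by -0.24 ± 0.12, Mrpl43 by -0.17 ± 0.12 and Mrpl27 by -0.15 ± 0.14.

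The 3 members that the length offset moved most were the 3 shortest. Within a library the offset is set by length alone, so this order follows from its form and is no separate result. For the same reason members near the middle of the length range hardly move. Mrpl49, at 501 bases, went from -0.0017 ± 0.13 to 0.13 ± 0.12. Mrps21, at 482 bases, went from -0.18 ± 0.25 to -0.02 ± 0.30, and in the fit on counts it was 0.02 without LI3. Mrps10, at 508 bases, went from 0.21 ± 0.29 to 0.36 ± 0.34. Mrpl45, at 2205 bases, close to the median length of tested genes, stayed at -0.16 ± 0.12, and Mrpl40, the longest member at 2402 bases, at -0.17 ± 0.12. The effective length column deposited by the authors is the transcript length less about 57 bases for most genes in every library, and used as an offset it left the members at 59 lower with a median of -0.11.

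**Figure D4:**
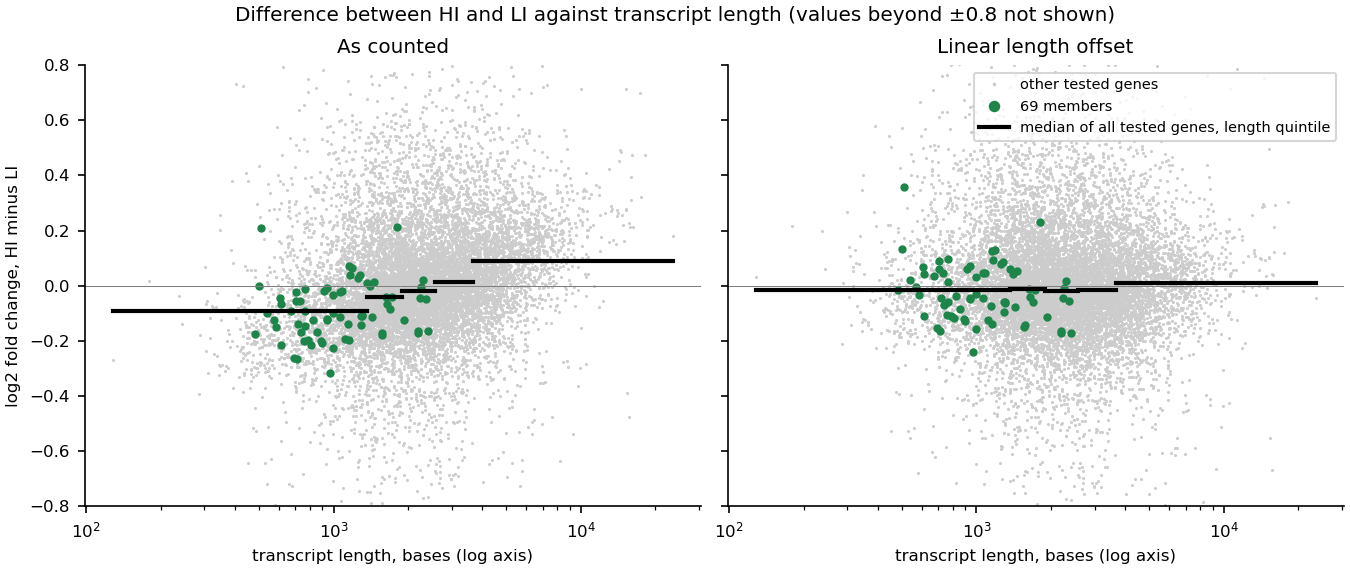
Log2 fold change (HI minus LI) against transcript length (log axis) for the 69 members (green) and the other tested genes (grey), from the fit on counts (left) and with a linear length offset (right). Black lines are medians of all tested genes in 5 bins of length: they run from -0.09 to 0.09 on the left and lie near 0 on the right. In the bin from 1895 to 2571 bases, 7 of 8 members are lower in HI in either fit, against 54.3% (left) and 54.7% (right) of all tested genes there.

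The length trend can also be laid out library by library. Scores and length slopes come from the same log2 CPM values, so this restates the trend and is no separate test. Each gene's log2 CPM was centred on its own 8-library mean, and the score of a library is the average over the 69 genes. The scores were -0.02, -0.03, -0.0027 and -0.14 (HI1 to HI4), and 0.10, 0.02, 0.06 and 0.0033 (LI1 to LI4). All HI scores thus lay below all LI scores, but HI3 and LI4 almost met. HI4, lowest, had the steepest positive length slope and LI1, highest, the steepest negative one. HI4 was the lowest of the 8 libraries in 35 of the 69 genes, and LI1 was the highest in 21 and LI3 in 18. With the length trend taken out, HI4 was the lowest in 21 and the highest in 17. The shares of all tested genes are not set beside these counts, so they do not single out the members. After the linear length correction the scores were -0.03, -0.02, -0.0075 and 0.0033 in HI and 0.01, -0.0055, 0.06 and -0.02 in LI. HI4 then lay inside the LI range, LI3 was highest, and the groups overlapped. The corrected scores averaged -0.01 ± 0.01 (HI) and 0.01 ± 0.04 (LI; SD, n = 4).

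**Figure D5:**
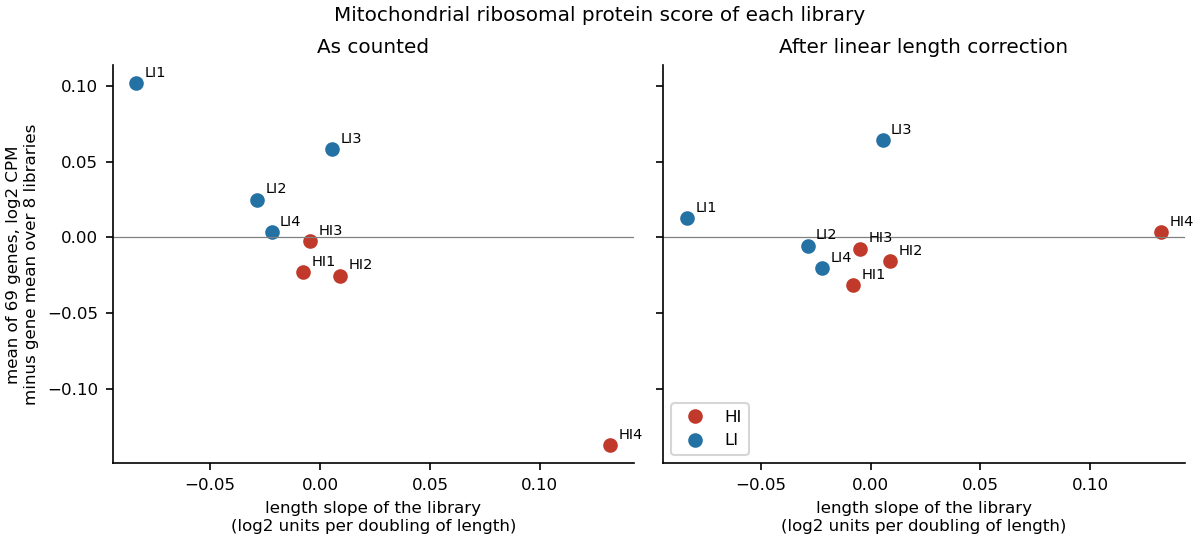
Score of each library over the 69 genes (mean log2 CPM minus gene mean) against the library's length slope (log2 CPM for each doubling of length), as counted (left) and after linear length correction (right), HI red and LI blue. On the left HI4 is lowest at -0.14 and LI1 highest at 0.10, at opposite ends of the slope axis, and on the right both lie near 0. Score and slope come from the same log2 CPM values.

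In summed level, the 69 genes made up 0.179% to 0.203% of the TMM-scaled counts. HI1 to HI4 summed to 1835, 1830, 1905 and 1788 CPM, and LI1 to LI4 to 2027, 1908, 2022 and 1928 CPM. Every HI sum was below every LI sum, with HI3 and LI2 only a few CPM apart. The microglial marker sums given above were also lower in every HI library, and their part in these values was not tested.

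A pair of libraries, 1 from each group, stood together in many genes, and in the members at close to the share of all tested genes. HI4 and LI3, which had the least ribosomal RNA, were together the 2 highest of the 8 libraries in 16 of the 69 genes and together the 2 lowest in another 16, which is 23.2% each, against 19.9% and 22.3% of all tested genes. Mrps21 stood at 27.9, 21.99, 37.7 and 44.7 CPM in HI and at 34.8, 26.9, 51.7 and 36.4 in LI, highest in LI3 and HI4. Mrpl42 stood at 57.6 CPM in HI4 and 60.2 in LI3 and at 26.8 to 50.9 elsewhere. Its log2 fold change of -0.09 ± 0.27 had the opposite sign without HI1 (0.03), HI2 (0.02) or LI3 (0.10).

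The opposite order was seen in Mrps12, counterpart of a bacterial protein of the decoding site, at 16.96, 18.4, 15.5 and 8.79 CPM in HI and at 19.1, 19.1, 9.44 and 17.9 in LI. HI4 and LI3 were low and the other 6 libraries close together, and the log2 fold change of -0.14 ± 0.28 was 0.04 without HI4 and -0.33 without LI3. Mrpl54 was also low in HI4, at 20.1 CPM against 34.2 to 46.3 in the others, and its difference of -0.21 ± 0.22 was -0.03 without HI4. Averaged over HI4 and LI3 against the other 6, the log2 CPM difference of members ranged from -1.16 (Mrpl14, named after its values were seen) to 0.75 (Mrps10). The labels name no batch, and what sets these libraries apart was not tested. Leaving out both, 54 of 69 members were lower in HI with a median of -0.07. The share of all tested genes that were lower in that fit is not set beside this count.

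Genes that work with the mitochondrial ribosome, from lists written for this comparison with earlier results of these data known, gave no call either. Each gene given with its values, here and in the next paragraph, is the one with the smallest p in its list. Of 8 ribosome components and partners with other names (such as Dap3, Ptcd3 and the membrane insertase Oxa1l), 8 were lower in HI (median -0.13), and 6 with the length offset (-0.05). Oxa1l, which inserts new chains into the inner membrane, had means of 70.5 ± 5.16 CPM (HI) and 80.8 ± 4.28 CPM (LI; SD, n = 4) and differed by -0.20 ± 0.10. Of 19 assembly factors 12 were lower (median -0.05), of 13 translation factors and message-binding proteins 10 (-0.01), and of 19 genes for mitochondrial aminoacyl-tRNA formation 13 (-0.06). With the length offset these counts were 13, 9 and 13. Among them Slirp, which stabilises mitochondrial messages, differed by -0.31 ± 0.17, and its deposited counts were not whole numbers in any library. Rbfa, an assembly factor, differed by -0.18 ± 0.15, and Pars2, the mitochondrial prolyl-tRNA synthetase, by -0.38 ± 0.31.

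Of 10 genes for transcription and copying of mitochondrial DNA, 8 were lower in HI (median -0.11; 6 with the length offset), and Tfam, which packages that DNA, differed by 0.16 ± 0.12. Of 10 regulators of mitochondrial biogenesis 3 were lower (median 0.07; 5 with the length offset). Ppargc1b, a coactivator of such genes, stood at 16.96, 16.4, 16.1 and 18.4 CPM in HI and at 11.8, 13.4, 10.7 and 16.1 in LI. All HI values were above all LI values, with HI3 and LI4 nearly equal, and the log2 fold change was 0.38 ± 0.16 (edgeR adjusted p = 1.00). With the length offset the fold change was 0.35 ± 0.15 and the groups overlapped.

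The nuclear respiratory chain and the cytosolic ribosome, lists of short and abundant messages, are given side by side with the mitochondrial ribosome. Of 79 cytosolic ribosomal protein genes 78 were lower with a median of -0.23, and 73 with a median of -0.13 with the length offset. Of 76 nuclear respiratory chain genes 73 were lower with a median of -0.15, and 58 with a median of -0.05 with the length offset. Their median lengths were 563 and 668 bases. The mitochondrial ribosome stood at 59 of 69 and -0.11, and at 43 of 69 and -0.04 with the offset. These medians describe the lists, and differences between the lists were not tested.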

How the data were processed

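RNA-seq of rat medial prefrontal cortex was deposited as 1 table per library. Each deposited table lists expected counts, TPM, FPKM, transcript length and effective length for every gene, per the file headers. The submitters' processing notes list Bowtie2 2.1.0. For the program that made the counts, the build, the annotation and the strand setting, nothing is given in the sources used here. Deposited TPM values, scaled by the authors over all listed genes, served 1 alternative test, and FPKM was not used.

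Expected counts were rounded, scaled by TMM, filtered with filterByExpr (minimum count 10, minimum total 15) and tested on 11631 genes with edgeR 4.0.16 (R 4.3.3, quasi-likelihood, Benjamini-Hochberg over all genes). The SE was recovered from the fold change and its F statistic. Log2 CPM used a prior count of 2. The length offset is each library's slope of log2 CPM deviations on log2 mean length, centred so that TMM scaling is kept; a lowess trend (span 0.3) was an alternative, as were RLE factors, other filters, DESeq2 1.42.0, limma 3.58.1 on log2(TPM + 0.5) or log2(TPM + 0.1), a replicate block, the ribosomal RNA share (or, added after seeing the data, its log2) as a covariate, and omission of libraries. The fits were tested on simulated data. No 2 libraries of a group agreed within sampling noise (smallest chi-square per degree of freedom 13.8).

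The members and lists were chosen with earlier results of these data known. Named members are the 8 with the smallest p, the 3 highest and 3 lowest fold changes, the 3 highest and 3 lowest levels per kb, the 3 moved most by the length offset, and 9 chosen for their roles; 25 in all. Start windows were matched by RefSeq transcript, symbol or synonym; Mrpl13, Mrpl15, Mrpl16, Mrpl19, Mrpl21, Mrpl35, Mrpl38, Mrpl43, Mrps12, Mrps22, Mrps24, Mrps28, Mrps34 and Mrps35 had none.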

Additional observations from a re-analysis of the deposited data

Results flagged for a closer look

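Within groups of 4 libraries, 62 sets of values were examined for 1 library far from the other 3, where chance gives about 1 in 20, and 2 were found. The score of HI4 over the 69 mitochondrial ribosomal protein genes, at -0.14, lay apart from the other HI libraries, which ran from -0.03 to -0.0027. After the linear length correction it no longer did. Mrps12 in LI3, at 3.28 log2 CPM, lay apart from the other LI libraries, which ran from 4.18 to 4.27.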

How the results depend on the processing

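No named member passed the adjusted threshold in any of the 32 alternatives run for it (Fisher's exact test on summed counts is given apart), so a change of sign below is a change within error. Over all genes limma called 0, and edgeR called 0 under every alternative except the log2 ribosomal RNA share as a covariate, added after seeing the data, which called 440 genes but no member. That count was 0 with the untransformed share, and 0 without HI4 or without LI3 (the members' median without HI4 was -0.0524). DESeq2 called 38 and Fisher's exact test 6596, and members were called only by Fisher's test (48). The count of members lower in HI ran from 37 to 59, and their median from -0.12 to -0.0205, over fits without 1 library, with and without the linear length offset. Counts of lower members in this section stand without the share of all tested genes in the same fit, and are descriptions only. The median was -0.04 with the linear offset (-0.0410), the lowess offset (-0.0365) and the offset with the replicate block (-0.0416). Raising the minimum mean count of the rule to 20 kept all 69 genes and to 50 kept 68.

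Signs turned in 10 of the 25 named members. With the linear offset Mrpl42 was 0.034, Mrps28 0.089, Mrpl49 0.13 and Mrps36 0.059; with lowess Mrps21 was 0.0018, Mrpl42 0.047, Mrps28 0.096, Mrpl49 0.15 and Mrps36 0.061. With the ribosomal RNA covariate Mrpl16 was -0.077, Mrps21 0.026 and Mrpl42 0.10. In that edgeR fit 52 members were lower and 2 had an unadjusted p under 0.05. With the log2 form of the covariate 53 were lower and 12 had such a p, Mrpl16 was -0.059 and Mrpl42 0.084. No share over all tested genes stands beside these counts of p, so they do not single out the members. Without HI4 the log2 form gave -0.036 for Mrpl16, 0.068 for Mrps21, 0.18 for Mrpl42 and 0.0074 for Mrps36. Without LI3 it gave -0.047 for Mrpl16, 0.0019 for Mrps21, 0.11 for Mrpl42 and 0.13 for Mrps28. Without HI4 and LI3 together Mrps28 was 0.056, Mrpl49 0.018 and Mrps22 -0.0091. By limma Mrps28 was 0.029 with a pseudocount of 0.5 and 0.033 with 0.1. Leaving out 1 library, with and without the offset, gave -0.029 to 0.25 for Mrpl16, -0.35 to 0.21 for Mrps21, -0.29 to 0.25 for Mrpl42, -0.33 to 0.034 for Mrpl54, -0.23 to 0.26 for Mrps28, -0.036 to 0.18 for Mrpl49, -0.33 to 0.10 for Mrps12, -0.14 to 0.28 for Mrps22, -0.084 to 0.078 for Mrps36 and -0.22 to 0.0018 for Mrps18a. The cause was not tested.

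Deviations from group means correlated across genes by 0.21, 0.54, -0.05 and 0.06 for HI and LI libraries of the same replicate number, 1 to 4. For libraries of different numbers the values ran from -0.59 (HI4 with LI2) to 0.78 (HI4 with LI3). These values do not settle whether the numbers pair the libraries. With the replicate block edgeR called 0 genes, 58 members were lower, and Mrps28 was 0.0065; with block and linear offset Mrpl42 was 0.032, Mrps28 0.11, Mrpl49 0.14 and Mrps36 0.058. Depth limits Mrps28 most, with a mean of 22.8 counts.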

Other observations

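Of the 18 genes that share a start region with a member, 14 were tested, and 9 of these had lower fitted values in HI. Mrps11 and Mrpl46, themselves members, are among the 9. Without them 7 of 12 were lower, with a median of -0.06 (log2 HI minus LI ± SE here and below), where 51.5% of all tested genes were lower. Several are genes of other machines. Ndufb5, a complex I subunit that starts 244 bases from Mrpl47, differed by -0.13 ± 0.14, and Fau, the source of a cytosolic ribosomal protein, 186 bases from Mrpl49, by -0.20 ± 0.22. Psma2, a proteasome subunit 210 bases from Mrpl32, differed by -0.09 ± 0.15, and Tcp1, a chaperonin subunit 425 bases from Mrpl18, by 0.05 ± 0.23. Hira, a histone chaperone 186 bases from Mrpl40, differed by 0.08 ± 0.18, and Ptcd2, a mitochondrial RNA-binding protein 91 bases from Mrps27, by 0.11 ± 0.16. None passed the adjusted threshold.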
